A study of Sus scrofa with 28 samples.

Results

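FOSB, FOSL2, MAFF and ZFP36L1 are genes of the fast transcriptional response to stimuli, and their levels were examined in loin muscle (Longissimus dorsi) of young pigs. They were taken by gene symbol, from the study's list of regulatory factors and otherwise from the annotation of the array, which gave 5 probe sets of 4 genes out of 5226 probe sets and 2275 named genes in the table. FOSB, MAFF and ZFP36L1 had 1 probe set each, and FOSL2 had 2. Of the FOSL2 probe sets, the brighter one carries the name FOSL2 in the study's list, while the array annotation assigns it to FOSL2 and FRZB together. Its values are given as FOSL2 below with that doubt.

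The muscle came from 28 male piglets slaughtered at weaning, at 28 days of age: 14 Duroc × Iberian (DU×IB) piglets, from Duroc boars and Iberian sows, and 14 purebred Iberian (IB) piglets. Each piglet had an array of its own, and all dams were Iberian. The arrays were hybridized in 2 series, the first with 8 DU×IB and 8 IB piglets and the second with 6 and 6, which the spike-in controls separated (mean level 8.93 to 9.68 in the first series and 6.19 to 7.01 in the second). Per the study's methods both types had fewer litters than piglets, and the DU×IB piglets came from fewer litters than the IB piglets. The labels do not give litters, so piglets were treated as independent, and the p-values and SDs below do not account for littermates. Values are on the log2 scale, where a difference of 1 is a doubling, and a value near 3 lies among the dimmest of the table (10% of its values are under 4.00). Markers of muscle fibres left in the table after the study's variation filter (MYL3, ATP2A1 and RYR1, 3 of 25 listed) had a mean level of 12.2 to 13.4 in DU×IB and 12.0 to 13.6 in IB piglets. In whole muscle, fewer cells of a type and less RNA per cell cannot be told apart.

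Immediate early genes are transcribed within minutes of a stimulus, without new protein synthesis, through kinases that act on factors already in the cell. Proteins of the FOS and JUN families pair through leucine zippers to form AP-1, which binds DNA and activates target genes, and the small MAF proteins, which lack an activation domain, pair with other leucine zipper factors. In skeletal muscle such genes respond to contraction, injury and handling of the tissue, and part of them also to stress hormones. Within this system FOSB and FOSL2 (FRA-2) are FOS family partners of JUN proteins, MAFF is a small MAF protein, and ZFP36L1 is a zinc finger protein that binds AU-rich elements and promotes decay of short-lived mRNAs.

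FOSB was the dimmest of the members with a single probe set. Its lowest, median and highest levels were 3.14, 3.86 and 6.86 in DU×IB and 3.12, 4.34 and 6.43 in IB piglets. In 10 of 14 DU×IB and 5 of 14 IB piglets the value lay under 4. A few piglets of both genetic types stood high, namely DU×IB 8 (6.86) and DU×IB 5 (5.58), and IB 14 (6.43), IB 4 (6.10) and IB 11 (5.56), and the groups overlapped over nearly their whole range. Means were 4.04 ± 1.01 in DU×IB and 4.49 ± 1.06 in IB piglets (SD, n = 14 each).

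FOSL2 varied little. The brighter probe set had lowest, median and highest levels of 5.69, 6.53 and 7.40 in DU×IB and 5.96, 6.78 and 7.38 in IB piglets, so that 3.27-fold separated the extremes of all 28 piglets, and the groups overlapped. The second probe set, which the array annotation gives to FOSL2 alone, was near the floor of the table, with 2.53, 2.72 and 4.41 in DU×IB and 2.55, 2.83 and 5.63 in IB piglets. It stood clear of that floor mainly in IB 6 (5.63), DU×IB 7 (4.41), IB 8 (4.31), IB 5 (4.21) and DU×IB 1 (3.92). The extremes of this second probe set lay 8.55-fold apart over all 28 piglets. Across piglets both probe sets had a Pearson r of 0.33 (permutation p = 0.0964, adjusted over 3 pairs 0.0964) and a Spearman rho of 0.29 (p = 0.137), and r was 0.30 without the 2 farthest piglets. Another probe set that the annotation assigns to FOSL2 and FRZB has no name in the study's list and was not a member. It followed the brighter one (r = 0.81, adjusted p = 6e-05, rho = 0.65, and r = 0.71 without the 2 farthest piglets), with levels of 3.94 to 7.06 in DU×IB and 4.98 to 7.31 in IB piglets. Its extremes lay 10.33-fold apart over all 28 piglets.

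MAFF spread over 7.46 to 9.58 in DU×IB piglets, with a median of 8.30, and over 6.82 to 11.03 in IB piglets, with a median of 8.91. The 5 highest levels were all of IB piglets (IB 6, 10, 11, 8 and 5, from 10.01 to 11.03), above every DU×IB piglet, and the lowest was also IB (IB 2). Means were 8.39 ± 0.65 in DU×IB and 9.12 ± 1.28 in IB piglets (SD, n = 14 each), and the ratio of these SDs, DU×IB over IB, was 0.505. That difference in spread was not tested, and the unequal number of litters cannot be told apart from it.

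ZFP36L1 was the brightest member, above 97.7% of the probe sets of the table by its mean. It had 10.69, 11.22 and 12.07 (lowest, median, highest) in DU×IB and 10.88, 11.58 and 12.45 in IB piglets. The 3 lowest levels were of DU×IB piglets and 3 of the highest were of IB piglets, with overlap between them. Means were 11.26 ± 0.43 in DU×IB and 11.62 ± 0.47 in IB piglets (SD, n = 14 each).

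**Figure D1:**
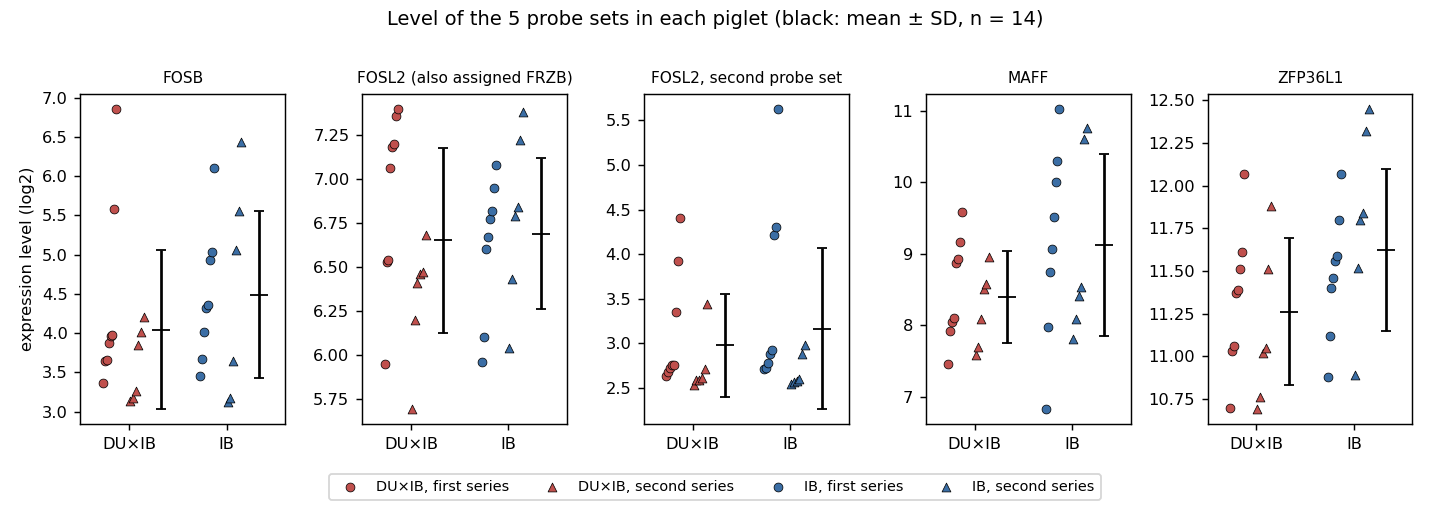
Expression level (log2; each panel has its own axis) of the 5 probe sets in each of 28 piglets, DU×IB in red and IB in blue, with circles for the first and triangles for the second hybridization series; black marks are the mean ± SD (n = 14). MAFF reached 11.03 in IB and 9.58 in DU×IB piglets, while FOSB stood high in single piglets of both types.

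The comparison of genetic types asked whether crossing with Duroc boars goes with another level of these genes. No member probe set passed the threshold of an adjusted p of 0.10 (limma with the hybridization series as a block, two-sided, Benjamini-Hochberg over 5226 probe sets), where 145 probe sets of the table (2.77%) did, 108 higher (2.07%) and 37 lower (0.708%) in DU×IB. All 5 differences, DU×IB minus IB, were below 0, as 2480 of all 5226 were. At an unadjusted p under 0.05, ZFP36L1 alone of the 5 passed, against 722 of all probe sets (13.8%).

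MAFF had the largest difference of the members, -0.73 (SE 0.36, 95% interval -1.47 to 8.53e-05, unadjusted p = 0.05002, adjusted p = 0.361 with limma). The ratio DU×IB over IB was 0.601, and 10 of 14 DU×IB piglets had less than the median IB piglet. By series, MAFF differed by -0.68 (first) and -0.81 (second).

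ZFP36L1 differed by -0.36 (SE 0.17, 95% interval -0.72 to -0.01, unadjusted p = 0.0469, adjusted p = 0.353 with limma), a ratio of 0.778. Less than the median IB piglet was found in 11 of 14 DU×IB piglets. By series it was -0.14 (first) and -0.65 (second), and the test of genetic type by series gave an adjusted p of 0.804.

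For FOSB the difference was -0.45 (SE 0.36, 95% interval -1.19 to 0.30, adjusted p = 0.663 with limma), with 12 of 14 DU×IB piglets under the median IB piglet. It was -0.12 in the first series and -0.89 in the second. Leaving out DU×IB 8 gave -0.66 and leaving out IB 14 gave -0.27, both short of the threshold.

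FOSL2 had a difference of -0.04 by the brighter probe set (SE 0.18, 95% interval -0.40 to 0.33, adjusted p = 0.962 with limma) and -0.19 by the second (SE 0.25, 95% interval -0.70 to 0.33, adjusted p = 0.829). For the brighter probe set the sign turned between series, with 0.28 in the first and -0.46 in the second. The test of that difference gave -0.74 (unadjusted p = 0.0381, adjusted p = 0.766), in a table where 0 of 5226 probe sets passed the same test after adjustment and 6.37% had an unadjusted p under 0.05.

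Of 46 other immediate early genes listed, 22 were in the table and 0 passed the threshold, 9 with a higher and 13 with a lower mean in DU×IB. At an unadjusted p under 0.05 there was 1, GADD45B, a stress-induced regulator of growth arrest (-0.46, SE 0.21, adjusted p = 0.327). The median difference of the 22 was -0.03, against 0.02 over all probe sets and -0.41 over the 4 members. BTG2, an antiproliferative gene, had the largest difference in the other direction (0.53, SE 0.46, adjusted p = 0.686). ATF3, a stress-induced factor of the same zipper family, differed by 0.37 (SE 0.70, adjusted p = 0.880), and PLK2, a kinase induced by growth factors, by 0.36 (SE 0.30, adjusted p = 0.673). FOS itself, the AP-1 subunit that gives the family its name, had nearly equal means (11.18 in DU×IB and 11.17 in IB piglets) although it ran over 7.20 to 13.61 in DU×IB and 6.29 to 14.33 in IB piglets, a 262-fold range.

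**Figure D2:**
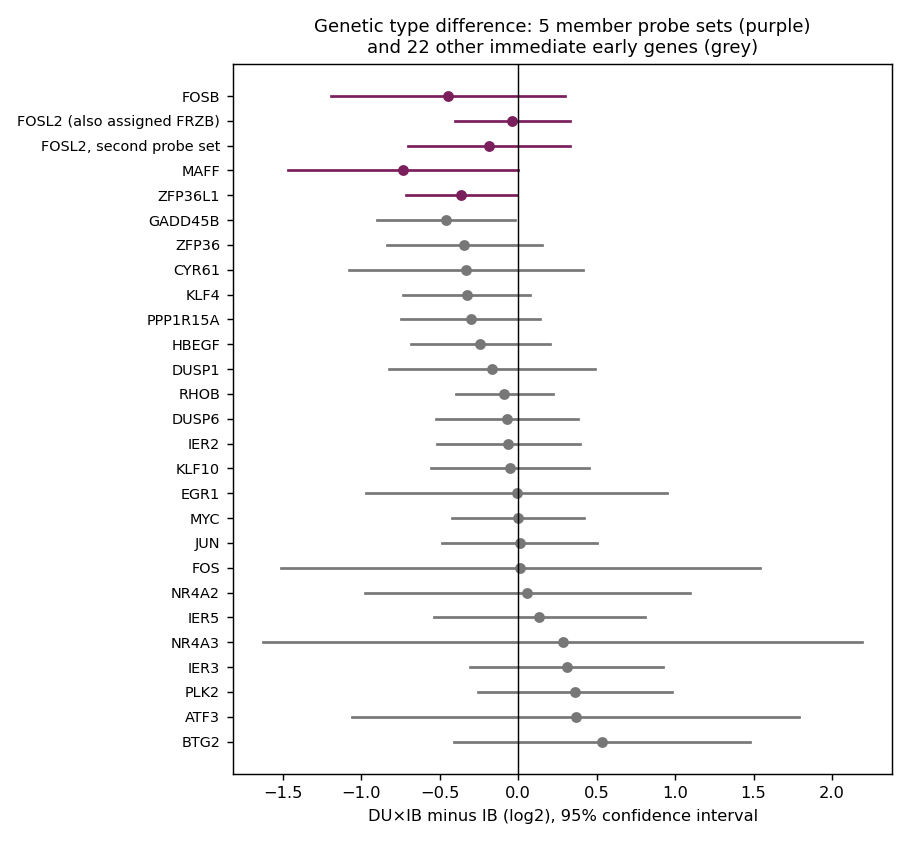
Difference of means, DU×IB minus IB, on the log2 scale (x axis) with 95% intervals for the 5 member probe sets (purple) and 22 other immediate early genes (grey), from limma with a series block. Among the members, only the interval of ZFP36L1 lies wholly below 0, MAFF's ends at 0, and no gene in the plot passed the adjusted threshold.

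None of the other 7 gene lists that surround the members in the pathway had a gene past the threshold. At an unadjusted p under 0.05 each had 0 to 4 genes, against 13.8% of all probe sets. The counts were 3 of 18 bZIP partners, 1 of 9 mRNA decay genes, 0 of 8 kinase and SRF genes and 4 of 10 AP-1 targets. They were 1 of 22 heat shock, 1 of 19 glucocorticoid and catecholamine response and 1 of 7 hypoxia genes. Among the bZIP partners and competitors, 18 of 38 listed were measured, 11 with a lower mean in DU×IB, with a median difference of -0.12. NFE2L1, a cap'n'collar partner of small MAF proteins, had -0.55 (SE 0.17, adjusted p = 0.111), NFE2L3, of the same group, -0.52 (SE 0.25, adjusted p = 0.345), and NFIL3, a zipper repressor, -0.47 (SE 0.43, adjusted p = 0.702). Among the mRNA decay genes that act on AU-rich elements, 9 of 35 were measured, with a median of -0.03. The RNA-binding protein TIAL1 had -0.46 (SE 0.15, adjusted p = 0.119) and ZFP36, a relative of ZFP36L1 of like function, -0.34 (SE 0.24, adjusted p = 0.595). By its own model of these arrays, the study listed NFE2L1 and TIAL1 among the genes higher in IB piglets. Upstream kinases and SRF pathway genes (8 of 39 measured) had a median of 0.10, and the genes known as AP-1 targets (10 of 27 measured) 0.12. The 4 targets at an unadjusted p under 0.05 were SPP1, HMOX1, CCL2 and MMP2. SPP1 (osteopontin) had -1.36 (SE 0.63, adjusted p = 0.327), with an SD of 0.55 in DU×IB and 2.54 in IB piglets. HMOX1 had -0.99 (SE 0.48, adjusted p = 0.359), CCL2 -0.62 (SE 0.30, adjusted p = 0.353), and MMP2, a matrix protease, 0.37 (SE 0.13, adjusted p = 0.155). The medians were -0.11 for heat shock and unfolded protein genes (22 of 31 measured), -0.25 for genes of the glucocorticoid and catecholamine response (19 of 31, 17 of them with a lower mean in DU×IB) and 0.17 for hypoxia genes (7 of 20).

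Among the cell type markers, the fibroblast genes COL1A1 (1.21, SE 0.29, adjusted p = 0.0270) and POSTN (1.29, SE 0.36, adjusted p = 0.0634) were higher in DU×IB with the series block, 2 of 3 measured of 12 listed. Without the block neither passed (adjusted p = 0.187 for COL1A1 and 0.141 for POSTN with limma). By its own model the study listed both as higher in DU×IB, and its qPCR also found COL1A1 higher there. The mean level of these 3 markers was 9.15 to 10.5 in DU×IB and 6.66 to 9.85 in IB piglets. Macrophage and monocyte markers (9 of 18 measured) had lower means in DU×IB in 9 of 9, with 0 past the threshold, 3 at an unadjusted p under 0.05, and a mean level of 5.28 to 5.97 in DU×IB and 5.40 to 7.94 in IB piglets. Their part in the differences of the members was not tested, and their correlations with the members follow below. No listed lymphocyte marker (0 of 12) or neutrophil and mast cell marker (0 of 11) was in the table.

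The members did not vary together as 1 group across piglets. Correlations were computed over 28 piglets after each value was centred on the mean of its genetic type and series, with p from 100000 permutations within these strata, adjusted over the 6 pairs. MAFF and ZFP36L1 ran in opposite directions, with r = -0.62 (permutation p = 0.00077, adjusted p = 0.00462) and rho = -0.71 (p = 8e-05, adjusted p = 0.00048). The r was -0.73 without IB 2 and IB 6, the piglets farthest from the median of MAFF. It was -0.55 in the first series and -0.72 in the second, and -0.67 in DU×IB and -0.64 in IB piglets. With values as deposited, not centred, r was -0.37 and missed the threshold (adjusted p = 0.104). IB 10 shows it at its widest, with the second highest MAFF (10.76) and a ZFP36L1 of 10.89. At the other end, DU×IB 2 had 7.46 for MAFF and 12.07 for ZFP36L1.

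FOSL2 and MAFF had r = 0.50 (permutation p = 0.0111, adjusted p = 0.0334) and rho = 0.41 (p = 0.0419, adjusted p = 0.120). The r was 0.64 in the first series and 0.26 in the second, 0.62 in DU×IB and 0.48 in IB piglets, and 0.45 without the 2 farthest piglets. FOSL2 and ZFP36L1 had r = -0.42 (permutation p = 0.0412, adjusted p = 0.0824) and rho = -0.30 (adjusted p = 0.173), and the r of -0.34 without the 2 farthest piglets had an adjusted p of 0.130.

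FOSB did not pass the threshold with any other member. Its r was 0.36 with MAFF (permutation p = 0.0958, adjusted p = 0.144, rho = 0.41, and 0.45 without the 2 farthest piglets), -0.20 with ZFP36L1 (adjusted p = 0.430, rho = -0.31) and -0.08 with FOSL2 (adjusted p = 0.731, rho = -0.12). FOSB and ZFP36L1 had r = 0.18 in DU×IB and -0.52 in IB piglets, a difference of 0.69 that did not pass after adjustment over the 6 pairs (permutation p = 0.0236, adjusted p = 0.141). By rho that difference was 0.83 (adjusted p = 0.0569). For the other 5 pairs the difference in r between genetic types had adjusted p of 0.505 to 0.905.

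The members were then set against the other immediate early genes. The mean of the 22 measured genes, each scaled to its SD, had r = 0.82 with FOSB (permutation p = 2e-05, adjusted over the 4 members 8e-05) and rho = 0.79 (p = 1e-05, the smallest these permutations can give). The r was 0.78 without the 2 farthest piglets, 0.81 in the first series and 0.84 in the second, 0.77 in DU×IB and 0.86 in IB piglets. The other members had r = 0.41 (MAFF, permutation p = 0.0659, adjusted p = 0.132, rho = 0.40), -0.09 (FOSL2, adjusted p = 0.688, rho = -0.04) and -0.09 (ZFP36L1, adjusted p = 0.688, rho = -0.10). For MAFF the r was -0.12 in DU×IB and 0.59 in IB piglets, and for ZFP36L1 it was 0.37 in DU×IB and -0.39 in IB piglets. These differences were not tested. The 22 genes themselves had a median r of 0.22 over their 231 pairs, 172 of them positive, so they were no single block either.

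Gene by gene, over 88 pairs of a member and another immediate early gene, FOSB was positively correlated past the threshold with 13 of 22 and negatively with 0. The highest were NR4A2, an orphan nuclear receptor (r = 0.77, permutation p = 2e-05, adjusted p = 0.00044, rho = 0.71), BTG2 (r = 0.70, adjusted p = 0.00460, rho = 0.71) and IER5, an immediate early gene of the stress response (r = 0.66, adjusted p = 0.00616, rho = 0.69). JUN, its classical partner in AP-1, had r = 0.64 (adjusted p = 0.0192, rho = 0.58). FOS had r = 0.56 (adjusted p = 0.0437, rho = 0.56), and EGR1, a zinc finger factor, 0.46 (adjusted p = 0.0777, rho = 0.48). These r were 0.70, 0.63, 0.56, 0.50, 0.47 and 0.39 without the 2 farthest piglets, in the order of the genes above.

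MAFF had 6 positive and 1 negative past the threshold, and 3 of the 6 (ATF3, NR4A3 and PPP1R15A) were also among the 13 of FOSB. Whether the r of MAFF and FOSB with a gene differ was not tested. The positive ones were NR4A3, an orphan nuclear receptor of the same family as NR4A2 (r = 0.81, permutation p = 1e-05, the smallest these permutations can give, adjusted p = 0.00044, rho = 0.81), PPP1R15A, a regulator of translation under stress (r = 0.75, adjusted p = 0.00427, rho = 0.71), ATF3 (r = 0.75, adjusted p = 0.00158, rho = 0.78), GADD45B (r = 0.58, rho = 0.46), IER3, a regulator of cell survival (r = 0.56, rho = 0.68) and KLF4, a zinc finger factor (r = 0.53, rho = 0.43). PPP1R15A was dim, with a median of 3.48 over all 28 piglets and a highest level of 4.38 in DU×IB and 5.38 in IB piglets. Without the 2 farthest piglets the r of MAFF were 0.81 (NR4A3), 0.71 (PPP1R15A), 0.76 (ATF3), 0.36 (GADD45B), 0.63 (IER3) and 0.485 (KLF4). By the other GADD45B probe set the r was 0.52, and 0.34 without those piglets. NR4A3 and MAFF had r = 0.88 in DU×IB and 0.82 in IB piglets. These are values of the brightest of 3 NR4A3 probe sets. A dim one gave r = 0.75 with MAFF (permutation p = 2e-05, adjusted over 24 pairs 0.00048, rho = 0.82, and 0.79 without the 2 farthest piglets). The third, named NR4A3 in the study's list and not by the array annotation, had r = 0.20 with the brightest and 0.25 with MAFF (permutation p = 0.293, adjusted p = 0.396, rho = 0.29, and 0.65 without IB 2 and IB 6), so the result for NR4A3 depends on the probe set. With FOS, JUN and EGR1 the r of MAFF was -0.03, -0.02 and -0.15. The negative one was DUSP1, a phosphatase that switches off MAP kinases (r = -0.52, adjusted p = 0.0457, rho = -0.47).

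ZFP36L1 had 5 negative and 2 positive past the threshold, and for NR4A3, ATF3, IER3, PPP1R15A and DUSP1 its sign was opposite to that of MAFF. It was negatively correlated with NR4A3 (r = -0.77, permutation p = 2e-05, adjusted p = 0.00044, rho = -0.78) and ATF3 (r = -0.70, adjusted p = 0.00044, rho = -0.72). Also negative were IER3 (r = -0.52), the dim PPP1R15A (r = -0.51) and the growth factor gene HBEGF (r = -0.42, adjusted p = 0.0511). The positive ones were DUSP1 (r = 0.61, adjusted p = 0.0121, rho = 0.62) and ZFP36 (r = 0.44, adjusted p = 0.0901, rho = 0.45). By the dim NR4A3 probe set the r was -0.62 (adjusted p = 0.0132, rho = -0.66) and by the third -0.21 (adjusted p = 0.445, rho = -0.10). Without the 2 farthest piglets the r was -0.71 with the brightest NR4A3 probe set, -0.69 with ATF3 and 0.54 with DUSP1.

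FOSL2 was positively correlated with GADD45B (r = 0.64, adjusted p = 0.00460, rho = 0.63), IER3 (r = 0.50, adjusted p = 0.0457) and NR4A3 (r = 0.46, adjusted p = 0.0499). The other NR4A3 probe sets gave 0.36 (adjusted p = 0.165) and -0.15 (adjusted p = 0.538), both short of the threshold. It ran against DUSP1 (r = -0.63, adjusted p = 0.00776, rho = -0.52), DUSP6, another MAP kinase phosphatase (r = -0.58, adjusted p = 0.0261), EGR1 (r = -0.52), FOS (r = -0.50) and IER2, an early gene of unsettled function (r = -0.45). Without the 2 farthest piglets these r were -0.52, -0.45, -0.40, -0.44 and -0.29, in the order of the genes above. For IER2 the rho was -0.27 (permutation test, adjusted p = 0.310). FOSB and FOSL2, the 2 members of the FOS family, had opposite signs with FOS, at 0.56 and -0.50. The FOSL2 value is that of the probe set also assigned to FRZB.

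**Figure D3:**
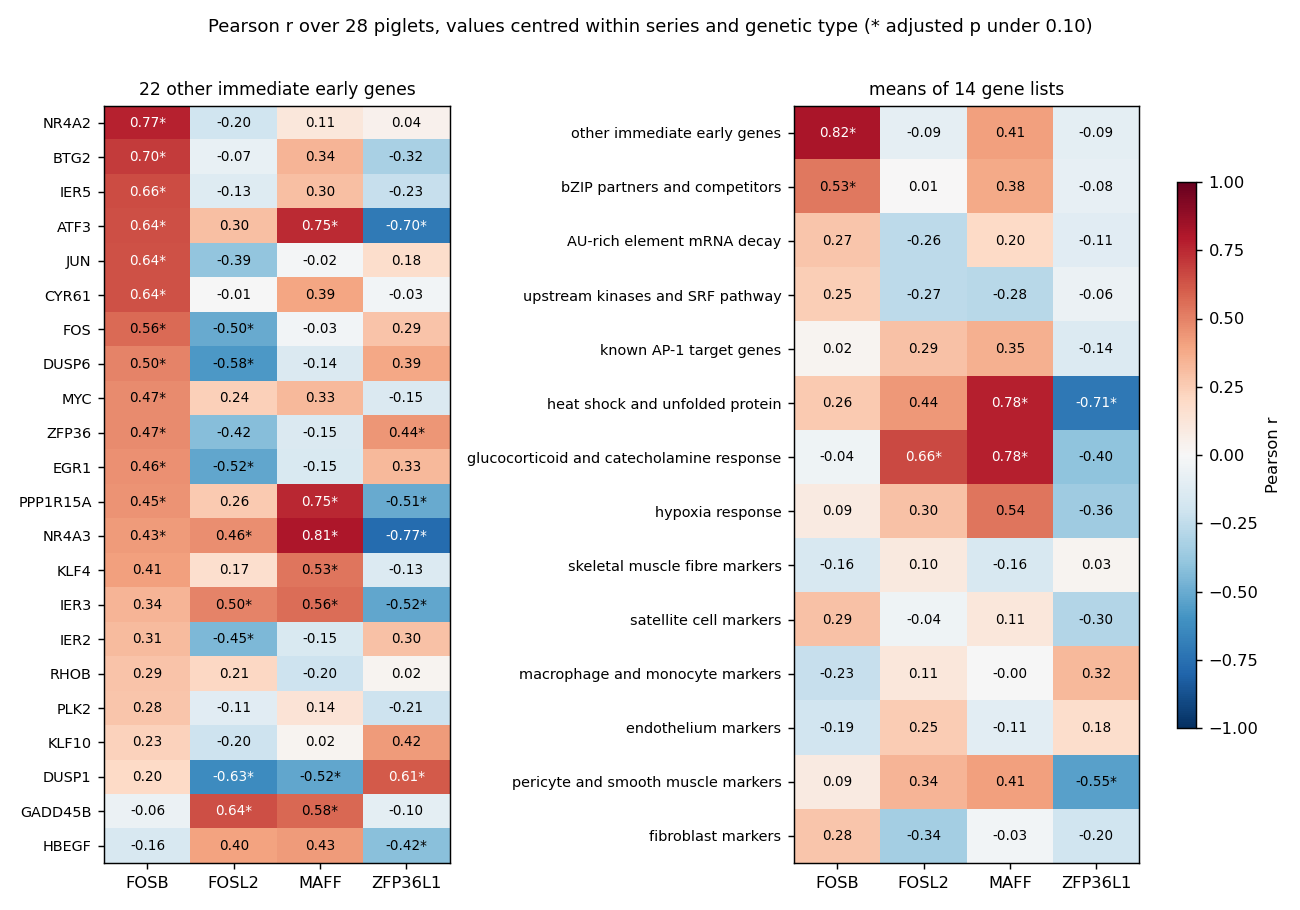
Pearson r of each member (columns) with 22 other immediate early genes (left, ordered by FOSB) and with the means of 14 gene lists (right), over 28 piglets with values centred within series and genetic type; an asterisk marks an adjusted p under 0.10 in that family of pairs. FOSB is positive with 20 of 22 genes, and the columns of MAFF and ZFP36L1 have opposite signs for NR4A3 (0.81 and -0.77, brightest of 3 probe sets) and ATF3 (0.75 and -0.70).

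**Figure D4:**
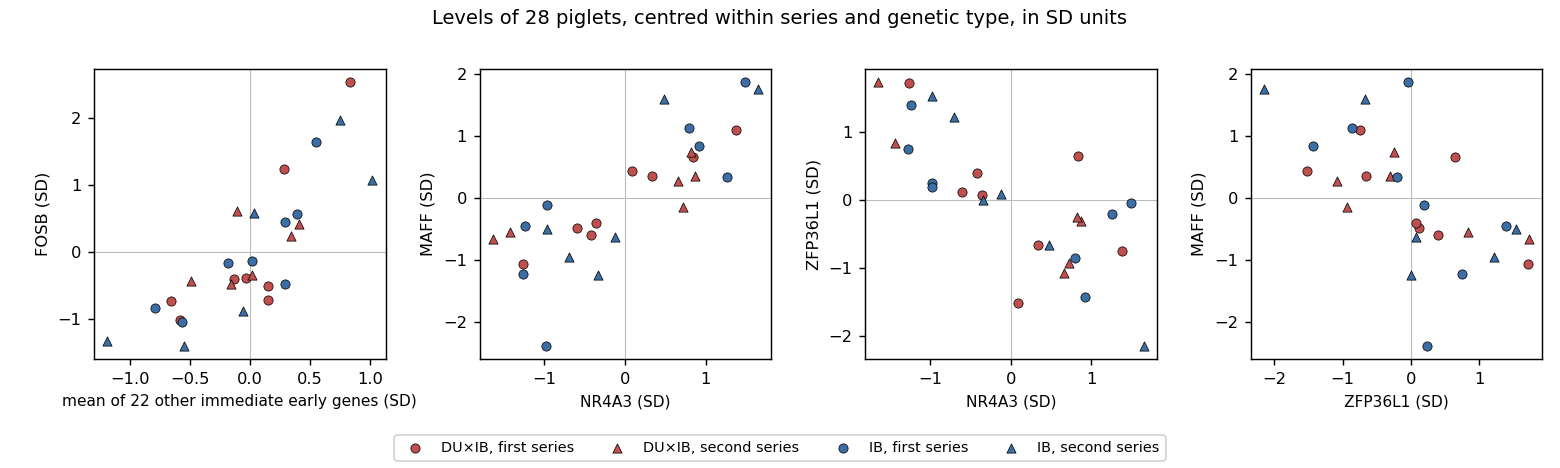
Levels of 28 piglets, centred within series and genetic type and divided by the SD (both axes), for FOSB against the mean of 22 other immediate early genes, MAFF and ZFP36L1 against the brightest NR4A3 probe set, and MAFF against ZFP36L1; the pairs were chosen after their values were seen. DU×IB piglets are red and IB piglets blue, with circles for the first and triangles for the second series. The centring gives all of these groups the same mean, so their overlap is no result. The r were 0.82, 0.81, -0.77 and -0.62 from left to right.

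The same members were then set against the mean levels of 13 further lists, 52 pairs adjusted together. MAFF followed the heat shock and unfolded protein genes (r = 0.78, permutation p = 1e-05, the smallest these permutations can give, adjusted p = 0.00052, rho = 0.78, and 0.78 without the 2 farthest piglets) and the genes of the glucocorticoid and catecholamine response (r = 0.78, adjusted p = 0.00052, rho = 0.78, and 0.68 without them). Within series these r were 0.84 and 0.77 for heat shock, and 0.91 and 0.51 for the hormone response, first and second series in turn. ZFP36L1 ran against the heat shock genes (r = -0.71, permutation p = 8e-05, adjusted p = 0.00139, rho = -0.77, and -0.63 without the 2 farthest piglets), with -0.58 in DU×IB and -0.82 in IB piglets. FOSL2 followed the hormone response list (r = 0.66, permutation p = 0.00035, adjusted p = 0.00455, rho = 0.61, and 0.61 without the 2 farthest piglets). The hormone response list holds NR4A3 and CREM, and the heat shock list DNAJB6, which are named as single genes in the text. The r of these lists without those genes were not computed, so they are not separate from the single-gene r.

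FOSB passed the threshold with neither of these lists (r = 0.26 with heat shock, adjusted p = 0.408, and -0.04 with the hormone response, adjusted p = 0.945). Its only pair past it was with the bZIP partners (r = 0.53, adjusted p = 0.0847, rho = 0.56, and 0.47 without the 2 farthest piglets, adjusted p = 0.218), a list that holds FOS, JUN and ATF3. With the genes known as AP-1 targets the r was 0.02 for FOSB, 0.29 for FOSL2 and 0.35 for MAFF, all with adjusted p over the threshold (0.949, 0.408 and 0.403).

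Of the cell type markers, 1 list passed with a member: pericyte and smooth muscle markers with ZFP36L1 (r = -0.55, permutation p = 0.00977, adjusted p = 0.0847, rho = -0.50), at -0.22 in the first and -0.77 in the second series. This pair missed the threshold by rho (permutation test, adjusted p = 0.107) and with array medians centred (r = -0.28, adjusted p = 0.403). The r was -0.45 without the 2 farthest piglets (adjusted p = 0.199), and 5 of 9 listed markers were measured, with a mean level of 8.28 to 9.93 in DU×IB and 7.56 to 9.69 in IB piglets. For macrophage and monocyte markers the r lay between -0.23 (FOSB) and 0.32 (ZFP36L1), and for fibroblast markers between -0.34 (FOSL2) and 0.28 (FOSB), with adjusted p of 0.403 or more. The 5 ribosomal RNA and actin control probe sets had r between -0.36 and 0.12 with the members, given without a test. RNA integrity was not examined here.

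The genes whose pattern was most like that of a member were taken by r from all 2274 other named genes, as a description. For FOSB the 5 highest were NR4A2, BTG2, IER5, ATF3 and JUN (0.77 to 0.64), 5 of 5 on the list of immediate early genes. Its lowest were RNF19B, a ubiquitin ligase (-0.76), STN1, a subunit of the telomere-binding CST complex (-0.70), and LRRC28 (-0.65). Over all other probe sets the r of FOSB had a median of 0.06, and 1.59% exceeded 0.5.

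Among named genes, MAFF had the closest neighbours. DNAJB6, a chaperone of the HSP40 family (r = 0.92), CREM, a cAMP-responsive leucine zipper factor (0.91), RETREG1, a receptor for autophagy of the endoplasmic reticulum (0.88), MYF6, the muscle regulatory factor MRF4 (0.88), and NDEL1, a dynein regulator (0.84), headed its list. Those r were 0.93, 0.89, 0.91, 0.91 and 0.88 in the first series and 0.90, 0.96, 0.84, 0.82 and 0.79 in the second. The lowest were the zinc finger gene ZNF3 (-0.85), LRRC28 (-0.79) and PHF17 (-0.75). Of all other probe sets, 6.30% had r over 0.5 with MAFF, the highest share of the 4 members.

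ZFP36L1 had ZNF3 (0.83) as its nearest named gene, the one farthest from MAFF. TRAPPC4, a subunit of a vesicle tethering complex (0.78), TBCC, a tubulin folding cofactor (0.78), and PPP1R3B, a glycogen-targeting subunit of protein phosphatase (0.72), were also among the nearest. NR4A3 (-0.77 by the brightest probe set, -0.21 by the third), TNFRSF12A, the TWEAK receptor (-0.76), and ABRA, an actin-binding protein of muscle (-0.75), were lowest. Over all other probe sets the highest r with ZFP36L1 was 0.98, by one not among those used for the named genes. Of all other probe sets, 4.50% had r over 0.5.

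For FOSL2 the nearest were GABARAPL1, an autophagy gene (0.76), BAG3, a cochaperone of muscle (0.70), TBX3, a T-box repressor (0.69), LITAF, a lysosomal membrane protein (0.66), and POU2F1, the octamer factor OCT1 (0.65). Among the lowest were the chemokine receptor CXCR4 (-0.67) and HACD3, an enzyme of fatty acid elongation (-0.65), and 1.65% of other probe sets exceeded 0.5.

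By piglet, the highest FOSB came with high levels of FOS or NR4A2 in both genetic types. DU×IB 8, with the highest FOSB (6.86), had the highest NR4A2 (9.11), ATF3 (13.09) and BTG2 (13.49) of all 28 piglets. IB 14 (FOSB 6.43) had the highest FOS (14.33) and JUN (13.79), but its MAFF (8.41) lay below the IB median and its FOSL2 (6.04) was the second lowest of the IB piglets. The lowest FOS (6.29) and EGR1 (6.07) were in IB 13, where FOSB was 3.18. High MAFF came with high NR4A3, by its brightest probe set, at 10.00 in IB 6 (MAFF 11.03) and 11.31 in IB 10 (MAFF 10.76). PPP1R15A, dim in most piglets (median 3.48), was 5.38 in IB 6 and 4.26 in IB 10. By the third NR4A3 probe set the NR4A3 levels were 3.91 in IB 6 and 10.06 in IB 10. IB 2, with the lowest MAFF (6.82), had an NR4A3 of 3.51 by the brightest and 8.88 by the third probe set and a PPP1R15A of 3.46, while its EGR1 was the highest of all piglets (12.16) and its FOS was 12.59. IB 11 was high in several of these genes, with 5.56 for FOSB, 10.61 for MAFF and 14.05 for FOS.

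**Figure D5:**
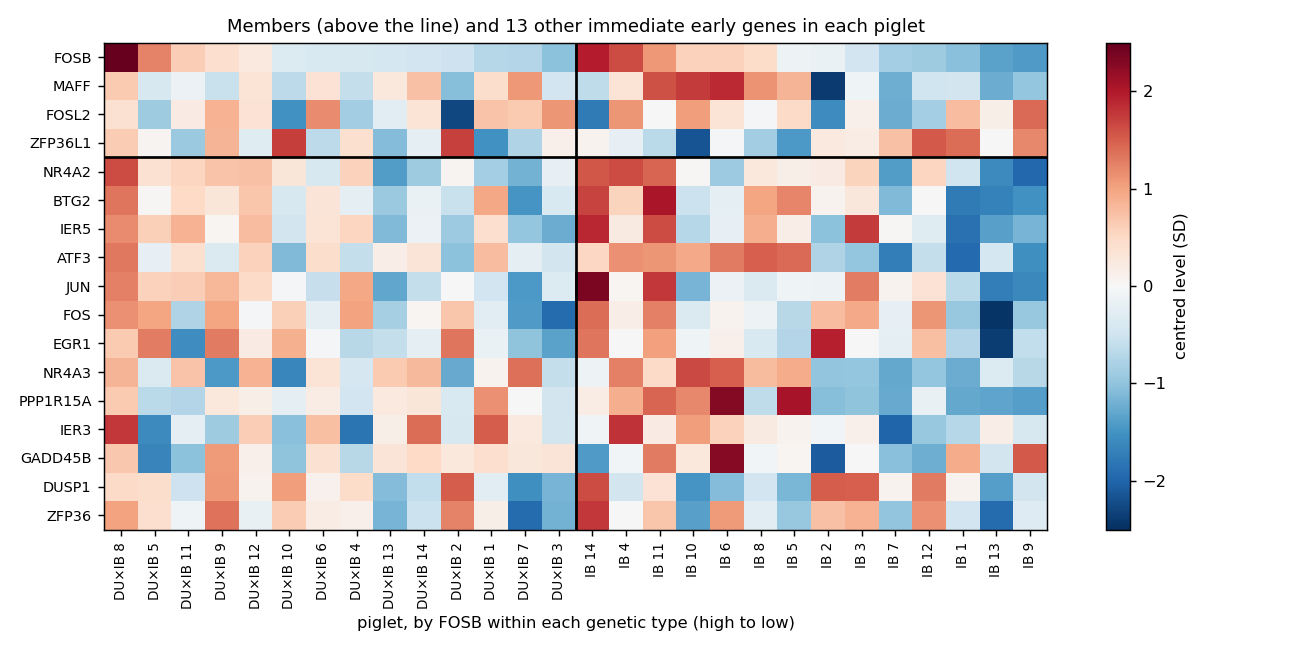
Levels centred within series and genetic type, in SD units (colour), of the 4 members (above the line) and 13 other immediate early genes in each piglet, DU×IB left and IB right, ordered by FOSB. The rows of NR4A2, BTG2, IER5 and JUN are red in DU×IB 8, IB 14 and IB 11, where FOSB is high. In IB 10, with a FOSB of 0.58 SD, BTG2 (-0.54), IER5 (-0.71) and JUN (-1.17) lie below 0. MAFF is high in IB 6, IB 10 and IB 11 together with NR4A3 (brightest probe set).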

How the data were processed

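Loin muscle RNA of each piglet was hybridized to a porcine genome array. The authors made the deposited log2 values with GCRMA, and kept the probe sets with more than 20% of values over 1.5-fold from the median, which all 5226 in the table met. Genes that varied little are therefore not in it, and differences of dim genes are compressed. Gene names came from the study's tables (572 probe sets) or the array annotation (2073). The study's Bayesian mixed model had array, genetic type and series as effects. Its methods give the series but not which piglet was in which, so series were separated here by the mean of 10 spike-in probe sets. Genetic types were compared with limma 3.58.1 in R 4.3.3 (lmFit and eBayes, series as a block, two-sided, adjusted p under 0.10). Correlations ran in Python with numpy 2.4.6 and scipy 1.17.1, on the probe set of highest mean for each gene, with permutations within series and genetic type (seed 1). The scripts were tested on simulated data. The 2 piglets farthest from the median of the first named measure were left out as a check.

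The members and gene lists were chosen with earlier results of these data known. Genes named beside the members were those of each list past the threshold or up to 4 of largest difference, and the 5 genes of highest and 3 of lowest r. Others were named after their values were seen, and a few genes that the rule gives are not reported here. Piglets are separate animals from unequal numbers of litters, which were not used here. The number of independent units of each type is below its 14 arrays, so SEs, intervals and p-values may be too small. Alternatives were no series block, other normalizations, array weights, another prior, dim probe sets left out, the replicate block, single series or types, and each piglet left out.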

Additional observations from a re-analysis of the deposited data

How the results depend on the processing

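No member passed the threshold under any alternative fit run, leaving out any of the 28 piglets included. The differences ran, with 1 piglet left out, over -0.66 to -0.27 for FOSB, -0.10 to 0.03 for FOSL2, -0.28 to -0.01 for its second probe set, -0.92 to -0.59 for MAFF and -0.43 to -0.30 for ZFP36L1. The sign of FOSL2 turned without DU×IB 2 (0.026), DU×IB 10 (0.031), IB 9 (0.028) or IB 10 (0.015) and within the first series (0.28), and that of the second probe set within the second series (0.055). The second probe set had no value with dim probe sets left out. Probe sets past the threshold numbered 52 without the series block, 54 without it after array centring, 276 with array weights, 9 and 229 within the first and second series, 80 at a threshold of 0.05, and 103 to 221 with 1 piglet left out (221 without IB 4).

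Replicate numbers did not pair the piglets: over 14 same-numbered pairs the correlation of deviations had a median of -0.07, and 1 piglet pair was closest to its own number. With the replicate block 145 probe sets passed, the difference of MAFF was -0.73 (adjusted p = 0.329) and that of ZFP36L1 -0.36 (adjusted p = 0.448).

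MAFF and ZFP36L1 missed the threshold with values as deposited (r = -0.37, adjusted p = 0.104) and within IB (-0.64, adjusted p = 0.104, 14 piglets). FOSL2 and MAFF missed it by Spearman correlation (0.41), within the second series (0.26) and within IB (0.48). FOSL2 and ZFP36L1 missed it with values as deposited (-0.22), by Spearman correlation (-0.30), with array centring (-0.22), within the first and second series (-0.52 and -0.32), within IB (-0.22) and without the 2 farthest piglets (-0.34). FOSB and MAFF passed with values as deposited (0.41, adjusted p = 0.0902), as did MAFF with the mean of the other immediate early genes (0.41, adjusted p = 0.0633). Correlations near 0 turned sign: FOSB and FOSL2 with values as deposited (0.058), within the first series (0.072) and without the 2 farthest piglets (0.033), FOSB and ZFP36L1 within DU×IB (0.18), and, with the mean of the other genes, FOSL2 with array centring (0.030) and without the 2 farthest piglets (0.050) and ZFP36L1 with array centring (0.023). The difference in correlation between genetic types passed for FOSB and ZFP36L1 by Spearman correlation (0.83), and turned sign for FOSB and FOSL2 by Spearman correlation (-0.040) and for MAFF and ZFP36L1 by Spearman correlation (0.0097) and with array centring (0.093). With other probe sets of the 4 immediate early genes that have several, chosen after the data were seen, 17 of 24 correlations kept their sign and side of the threshold. The sign turned for FOSL2 and NR4A3 (-0.15) and FOSB and GADD45B (0.11). FOSB and NR4A3 had r = 0.43 by the brightest probe set (permutation test, adjusted over 88 pairs 0.0612). By the other probe sets r was 0.34 and 0.45, and both missed the threshold when adjusted over 24 pairs (0.235 and 0.106). Without the series block COL1A1 and POSTN also missed it. The causes of these changes were not tested, beyond the fewer piglets within a series or type.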
